A study of Mus musculus with 36 samples.

Results

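Hedgehog signalling was followed through 9 genes of the embryonic mouse gut: the ligands Shh and Ihh, the receptor Ptch1, the ligand-binding inhibitor Hhip, the transducer Smo, the cytoplasmic inhibitor Sufu and the transcription factors Gli1, Gli2 and Gli3. They were taken by gene symbol from expression tables with 23361 distinct gene names, and each of the 9 had an entry and passed the filter on low values in every comparison. Shh and Ihh are secreted proteins made by the gut epithelium that signal to the mesenchyme around it. They bind Ptch1, which otherwise holds Smo inactive, and released Smo lets the Gli factors act as activators. Gli1, Ptch1 and Hhip are themselves induced by the signal, Gli3 acts mostly as a repressor, and Sufu holds Gli proteins in the cytoplasm. In the gut the pathway is known for patterning the smooth muscle and the villi.

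RNA was measured in whole dissected guts of C57BL/6J embryos labelled Ret null and of embryos labelled wild type, in females and males at E10.5, at E12.5 and at E14.5, with 3 libraries in each of the 12 groups. The labels do not name the null allele, and nothing in them says whether a library came from 1 embryo, so p-values measure only the spread between these libraries. In 4 pairs of libraries the 2 members differed by no more than counting noise, so their mean stood for 1 sample, leaving 5 samples labelled Ret null and 4 wild-type samples at E10.5, 6 and 5 at E12.5, and 6 and 6 at E14.5. All levels are FPKM, fragments scaled to transcript length and to library size, so that levels of different genes can be set side by side.

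Of the 18 libraries labelled Ret null, 7 nevertheless contained Ret RNA and are called Ret-positive (4.74 to 6.49 FPKM), while the other 11 held 0.0111 to 0.0587 FPKM and the wild-type libraries 2.11 to 13.3 FPKM. At E10.5 the libraries with Ret RNA were the 3 females labelled Ret null, at E12.5 they were 1 male, and at E14.5 they were 2 females and 1 male. Groups are therefore called by their labels, and results are also given without these 7. In 4 libraries sex-linked RNA went against the labelled sex. At E10.5 female 3 labelled Ret null held Ddx3y (13.5 FPKM) and little Xist (0.911 FPKM), and male 1 labelled Ret null held Xist (66.1 FPKM) and no Ddx3y. At E12.5 wild-type female 1 and 2 held Xist (49.1 and 52.2 FPKM) together with Ddx3y (4.91 and 4.98 FPKM). Estimated depth (in M fragments, M being the prefix mega) at E10.5 was 6.75 to 10.9 M fragments for Ret null and 6.88 to 17.8 M fragments for wild type. At E12.5 it was 17.5 to 41 M fragments for Ret null and 22.9 to 30.9 M fragments for wild type. At E14.5 it was 6.19 to 8.09 M fragments for Ret null and 4.88 to 6.79 M fragments for wild type. At E14.5, wild-type male 2 held RNA of heart and lung (summed markers 1252 and 473 FPKM) and wild-type female 1 RNA of liver (2459 FPKM), so results at that stage are also given without them. Liver RNA was uneven at E10.5 and E12.5 as well, with sums given there, and no sample was left out for it. Ret is the receptor that enteric neural crest cells need to settle the gut. In bulk gut, fewer cells of a type and less RNA per cell cannot be told apart.

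Because the ligands are relatives of each other, as are the Gli factors, their coding sequences were compared to see whether a read could belong to either gene. For each of 2 pairs the 100 coding bases centred on their longest identical stretch are shown, since a read there has the longest stretch to share, with the bases that differ in capitals. They were read from the GENCODE transcripts of GRCm38, and each spans an exon junction, so that its genomic interval includes an intron.
Shh: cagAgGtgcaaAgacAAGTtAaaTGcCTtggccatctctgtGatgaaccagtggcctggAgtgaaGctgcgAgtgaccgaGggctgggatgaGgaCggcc
Ihh: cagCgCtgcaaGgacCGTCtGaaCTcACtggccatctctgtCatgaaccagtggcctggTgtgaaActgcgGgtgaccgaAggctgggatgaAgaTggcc
Gli2: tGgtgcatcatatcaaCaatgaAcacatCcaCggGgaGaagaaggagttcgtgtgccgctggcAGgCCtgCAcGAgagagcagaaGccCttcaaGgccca
Gli3: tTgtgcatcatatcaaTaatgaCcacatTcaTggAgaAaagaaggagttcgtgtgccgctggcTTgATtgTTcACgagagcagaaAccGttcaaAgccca
The Shh window lies at chr5:28461487-28466463 and the Ihh window at chr1:74948469-74950902, both on the minus strand and both in exons 1 and 2. The Gli2 window lies at chr1:118845975-118848390 on the minus strand, in exons 9 and 10. The Gli3 window lies at chr13:15662523-15713590 on the plus strand, in exons 10 and 11. Of the 100 bases 81 were identical between the ligands and 82 between Gli2 and Gli3. Over the whole coding sequences the longest stretch shared without a difference was 17 bases between Shh and Ihh, 25 between Gli2 and Gli3, 23 between Gli1 and Gli2 and 14 between Gli1 and Gli3, against a read length of 75 bases. A read lying in coding sequence therefore differed from the relative at 1 base or more.

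In mm10, Shh lies at chr5:28456840-28467101, Ihh at chr1:74945318-74951651, Ptch1 at chr13:63511533-63565520 and Smo at chr6:29735497-29761366. Gli1 lies at chr10:127329882-127341579, Gli2 at chr1:118834061-119053619, Gli3 at chr13:15463723-15730025, Hhip at chr8:79965851-80058008 and Sufu at chr19:46396918-46486660. The members were expressed at unlike levels, with Smo, Gli1 and Ptch1 the most abundant. Over the 32 samples the median level was 52.6 FPKM for Smo, 27.1 for Gli1, 25.1 for Ptch1, 14.2 for Gli3, 14.0 for Shh, 10.6 for Sufu, 8.29 for Gli2, 6.38 for Ihh and 4.59 for Hhip. The ligands also varied most. The highest sample exceeded the lowest 25.3 times for Ihh and 6.32 times for Shh, against 1.65 times for Smo and 1.68 times for Sufu, with Hhip at 4.04, Gli3 at 2.87, Gli1 at 2.68, Ptch1 at 2.49 and Gli2 at 2.09.

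**Figure D1:**
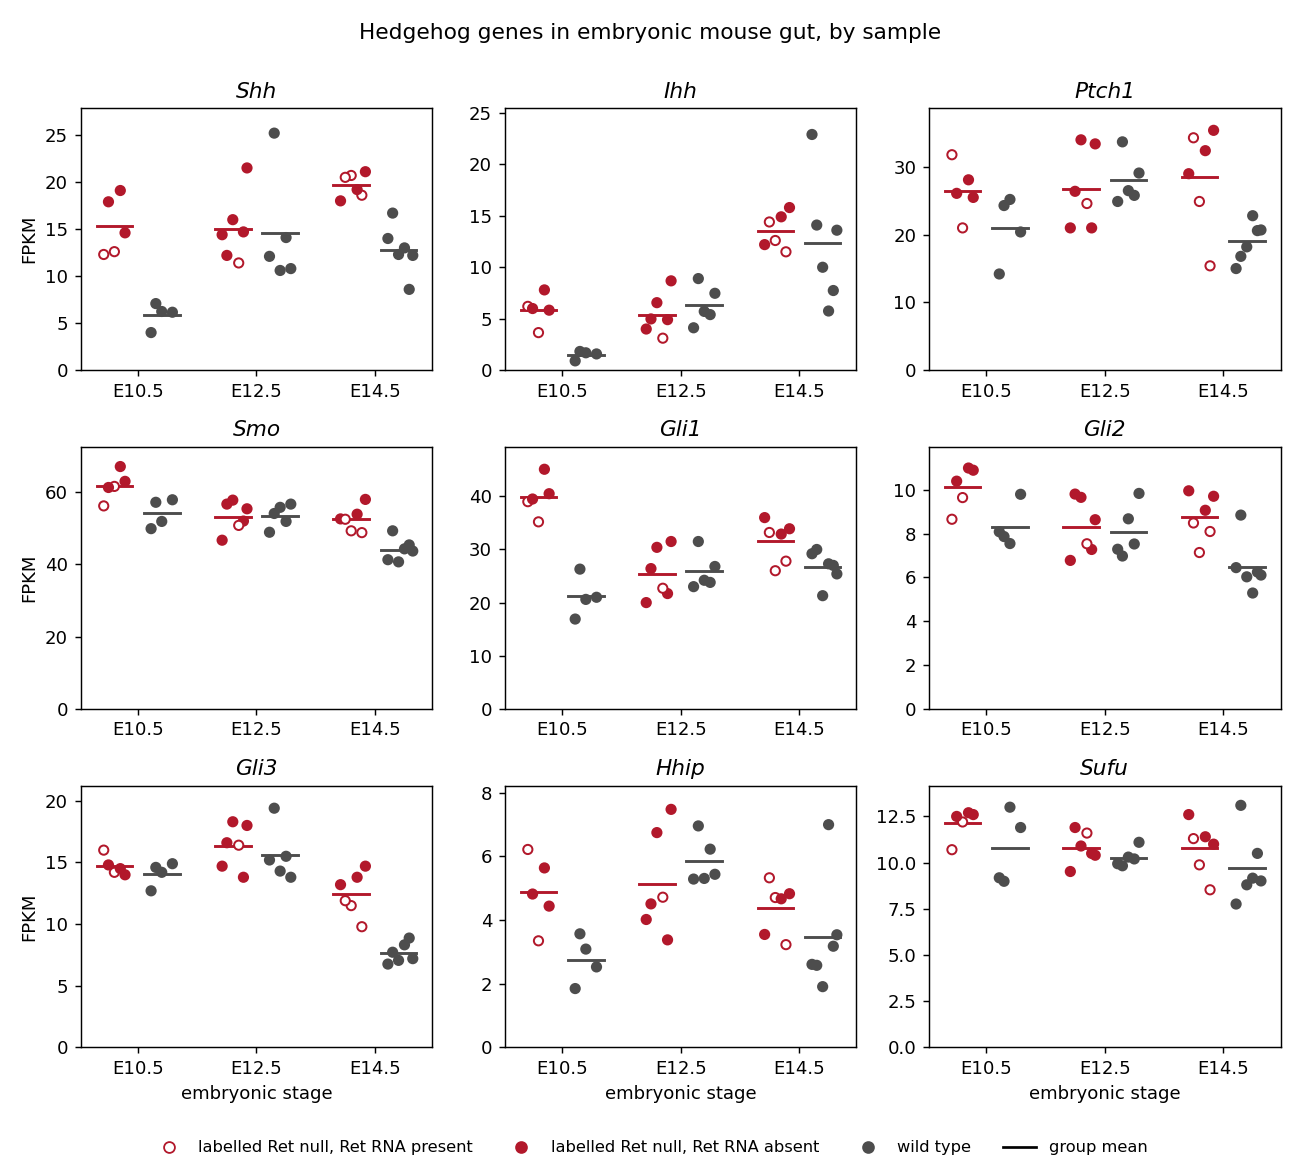
Level of each of the 9 Hedgehog genes in FPKM (vertical axis, from 0) by embryonic stage (horizontal axis), with 1 point per sample and a line at each group mean; red points are labelled Ret null (open where Ret RNA was present) and grey points are wild type. Shh at E10.5 lies at 12.3 to 19.1 FPKM in the samples labelled Ret null, all above the wild-type range of 4.0 to 7.08 FPKM, and Gli3 at E14.5 lies at 9.79 to 14.7 FPKM in the samples labelled Ret null and 6.76 to 8.87 FPKM in wild type.

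At E10.5 both ligands and the target Gli1 were higher in the guts labelled Ret null than in wild type. Shh, the ligand of the early endoderm, stood at 12.3, 12.6, 14.6, 17.9 and 19.1 FPKM in the samples labelled Ret null, against 4.0, 6.16, 6.24 and 7.08 FPKM in wild type. The groups did not overlap. The log2 fold change was 1.21 (SE 0.12), with an adjusted p of 0.0034 by limma with Benjamini-Hochberg adjustment over all 13165 genes tested. Ihh, the second endodermal ligand, stood at 3.65, 5.83, 5.99, 6.2 and 7.8 FPKM in the samples labelled Ret null, against 0.905, 1.58, 1.69 and 1.82 FPKM in wild type. Its log2 fold change was 1.41 (SE 0.17, adjusted p = 0.0044, limma), again without overlap. Gli1, whose transcription depends on the signal, stood at 35.2, 39.0, 39.5, 40.5 and 45.1 FPKM in the samples labelled Ret null, against 16.9, 20.6, 21.0 and 26.3 FPKM in wild type. Every sample labelled Ret null lay above every wild-type sample, and the log2 fold change was 0.88 (SE 0.09, adjusted p = 0.0034, limma).

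These 3 of the 9 genes were called, all of them higher, where 8.29% of all genes tested were called in either direction, 5.61% as higher and 2.67% as lower. The same 3 were the ones whose groups did not overlap, a pattern that 5.25% of all genes showed in that direction. With the Ret-positive samples left out, 7 of the 9 did not overlap, all but Gli3 and Sufu, where 1906 of all 13165 genes showed the pattern between the 3 and 4 samples left. The median log2 fold change of the 9 was 0.34, against 0.01 over all genes. Fold changes are of FPKM + 1, which understates the change of low genes. The other 2 targets and the rest of the cascade did not pass the test. Hhip, which binds and removes ligand, lay at 3.35 to 6.22 FPKM in the samples labelled Ret null and 1.85 to 3.57 FPKM in wild type (log2 fold change 0.64, 95% interval 0.23 to 1.05, adjusted p = 0.066, limma), and it passed without female 1 and 2 labelled Ret null (0.82, adjusted p = 0.036). Ptch1, the receptor, lay at 21.0 to 31.8 FPKM in the samples labelled Ret null and 14.2 to 25.2 FPKM in wild type, with a log2 fold change of 0.34 and an interval of -0.06 to 0.73. Smo was at 0.18 (0.06 to 0.29) and passed without female 3 labelled Ret null (0.21, adjusted p = 0.047), with Gli2 at 0.23 (0.06 to 0.41), Sufu at 0.15 (-0.11 to 0.41) and Gli3 at 0.06 (-0.07 to 0.20). The intervals of Gli3, Smo and Gli2 lie below the values of the ligands and Gli1.

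Ret RNA went with the labelled sex at this stage, since the females labelled Ret null all held it and the males did not. By sex-linked RNA the order was crossed, since female 3 held RNA of a male and male 1 that of a female. Within females the same 3 genes were called, with log2 fold changes of 1.16 for Shh, 1.35 for Ihh and 0.95 for Gli1, where 7.57% of all genes were called (4.56% higher, 3.01% lower). Shh lost the call there without female 1 and 2 labelled Ret null (adjusted p = 0.062), and Ihh without female 3 labelled Ret null (0.050) or wild-type female 3 (0.080). Without the libraries whose sex-linked RNA went against the label none of the 3 was called in females (adjusted p 0.070 to 0.086). Within males they were at 1.25, 1.47 and 0.80, and limma called 0 of the 9 (adjusted p 0.052 for Shh and 0.057 for Ihh and Gli1), where 0.106% of all genes were called (0.0987% higher, 0.0076% lower). At an unadjusted p under 0.05 the count in males was 5 of the 9, where 17.5% of all genes passed. Fitted by limma without the samples with Ret RNA, which leaves only the males labelled Ret null, Shh (1.25, adjusted p = 0.048) and Ihh (1.47, adjusted p = 0.034) were called and Gli1 (0.80, adjusted p = 0.051) was not, where 0.522% of all genes were called, 0.453% as higher. Those fold changes are over wild-type males, and wild-type females did not enter them. The test of the difference between the sexes called 0 of the 9 and 0% of all genes, and 0 of the 9 had an unadjusted p under 0.05 in it (18.7% of all genes). Depth went with genotype within females (9.36 to 10.9 M fragments for the label Ret null and 13.6 to 17.8 M fragments in wild type), and its part in the result was not tested. In the 3 files of females labelled Ret null 0% of FPKM values lay outside the authors' own confidence interval, against 3.66% to 16.76% in the other files of the series. The part of that difference was not tested.

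Markers of the tissues that make and receive the signal moved in the same comparison. Of 10 gut epithelium markers 8 were higher in the samples labelled Ret null, among them Epcam, a surface protein of epithelial cells, at 31.6 to 51.8 FPKM in the samples labelled Ret null and 17.3 to 21.8 FPKM in wild type. The summed level of the 10 ran from 203 to 322 FPKM in the samples labelled Ret null and from 143 to 355 FPKM in wild type, with the highest sum in wild-type female 3, and none of the 10 was under 1 FPKM in either group. Of 8 smooth muscle markers 6 were higher, with a sum of 375 to 512 FPKM in the samples labelled Ret null and 113 to 243 FPKM in wild type. Of the 4 stomach markers tested 2 were higher (sum of the 5 listed 16 to 130 FPKM in the samples labelled Ret null and 8.39 to 47.2 FPKM in wild type, with Pgc under 1 FPKM in both). Of the 3 pancreas markers tested 1 was higher (sum of the 5 listed 14.0 to 17.7 FPKM in the samples labelled Ret null and 2.81 to 9.77 FPKM in wild type, with Ptf1a and Prss1 under 1 FPKM in both groups). Of 4 blood markers 2 were lower (sum 2499 to 4045 FPKM in the samples labelled Ret null and 2890 to 6021 FPKM in wild type). Among mesenchyme markers 2 of 7 were higher, among enteric neural crest markers 2 of 8 (66 to 149 FPKM in the samples labelled Ret null and 51.2 to 112 FPKM in wild type) and among cloacal and urogenital markers 1 of 4. One of 2 heart markers was lower, and limma called 0 of the endothelial, liver and lung markers, with 2 of 4 endothelial ones at an unadjusted p under 0.05 (28.2% of all genes). The 4 liver markers summed to 21.3 to 362 FPKM in the samples labelled Ret null and to 10.2 to 799 FPKM in wild type. The notochord and floor plate also make Shh. Of the 6 genes listed for both, T and Noto, which define the notochord, were under 1 FPKM in every group of the series. Of the 2 markers of that list tested at E10.5 1 was higher, with a sum over the 6 listed of 9.56 to 14.7 FPKM in the samples labelled Ret null and 4.84 to 14.8 FPKM in wild type. The part of these markers in the change of the ligands was not tested beyond the ratio to Epcam given further on.

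At E12.5 none of the 9 differed detectably between the labelled genotypes. Shh ran from 11.4 through a median of 14.6 to 21.5 FPKM in the samples labelled Ret null, and wild type stood at 10.6, 10.8, 12.1, 14.1 and 25.2 FPKM. Ihh ran from 3.11 through 4.95 to 8.68 FPKM in the samples labelled Ret null, against 4.12, 5.40, 5.71, 7.47 and 8.90 FPKM in wild type. Gli1 ran from 20 through 24.6 to 31.5 FPKM in the samples labelled Ret null, against 23.0, 23.8, 24.2, 26.8 and 31.5 FPKM in wild type. The groups overlapped for all 9 genes, and limma called 0 of them, where 0.00759% of all genes (1 of 13182) were called. At an unadjusted p under 0.05 the count was 0 of the 9, against 8.46% of all genes. The log2 fold changes ran from -0.17 for Ihh and Hhip to 0.13 for Shh, and the median over the 9 was -0.003, against 0.01 over all genes. The intervals still leave room for a change: that of Shh ran from -0.35 to 0.62, that of Ihh from -0.67 to 0.33, and that of Gli1 from -0.29 to 0.27. All 3 intervals lie below the log2 fold changes found at E10.5, and the test of that difference is given below with the stages. Without the male with Ret RNA, Shh was at 0.21 and Ihh at -0.02, with 0 of the 9 called and 0 at an unadjusted p under 0.05 (7.87% of all genes), where 0.259% of all genes were called. No marker of any list was called at this stage by limma, though 6 of the 8 enteric neural crest markers had an unadjusted p under 0.05. All 8 summed to 63.3 to 154 FPKM in the samples labelled Ret null and 136 to 190 FPKM in wild type. The liver markers summed to 21.2 to 864 FPKM in the samples labelled Ret null and to 24.8 to 290 FPKM in wild type. Their part in the Hedgehog values was not tested.

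At E14.5 Shh was higher in the guts labelled Ret null, as were the receptor Ptch1, the transducer Smo and the factors Gli2 and Gli3. Ihh and Gli1 were not called, and the difference from E10.5 itself was not tested. Gli3, which acts mostly as the repressor of Hedgehog targets, stood at 9.79, 11.5, 11.9, 13.2, 13.8 and 14.7 FPKM in the samples labelled Ret null, against 6.76, 7.46 and 8.87 FPKM (lowest, median, highest) in wild type. The groups did not overlap, and the log2 fold change was 0.63 (SE 0.09, adjusted p = 0.0074, limma). Shh ran from 18.0 through 19.9 to 21.1 FPKM in the samples labelled Ret null, against 8.59, 12.7 and 16.7 FPKM in wild type, also without overlap (log2 fold change 0.61, SE 0.11, adjusted p = 0.011, limma). Ptch1 ran from 15.4 through 30.7 to 35.4 FPKM in the samples labelled Ret null, against 15, 19.4 and 22.8 FPKM in wild type. One sample labelled Ret null, female 3, lay inside the wild-type range and the other 5 above it, and the log2 fold change was 0.53 (SE 0.14, adjusted p = 0.032, limma). Smo ran from 48.8 through 52.6 to 58.0 FPKM in the samples labelled Ret null, against 40.7, 44.0 and 49.3 FPKM in wild type (0.25, SE 0.05, adjusted p = 0.016, limma). Gli2, the main activator that receives the signal, ran from 7.14 through 8.78 to 9.96 FPKM in the samples labelled Ret null, against 5.29, 6.18 and 8.85 FPKM in wild type (0.39, SE 0.11, adjusted p = 0.040, limma). For Smo and Gli2 only wild-type male 1 reached into the range of the samples labelled Ret null.

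These 5 of the 9 genes were called as higher and none as lower, where 15.7% of all genes were called in either direction and 10.9% as higher. The pattern of no overlap, held by Shh and Gli3, was held by 4.82% of all genes in that direction. With the Ret-positive samples left out it was held by 6 of the 9, all but Ihh, Hhip and Sufu, and by 16.3% of all genes, between 3 and 6 samples. The median log2 fold change of the 9 was 0.34, against 0.04 over all genes. Gli1 ran from 26 through 33.1 to 36 FPKM in the samples labelled Ret null, against 21.3, 27.1 and 30 FPKM in wild type, and was not called (0.23, interval 0.03 to 0.44, adjusted p = 0.099). Ihh was at 0.24 (-0.31 to 0.79), Hhip at 0.34 (-0.06 to 0.73, and 0.50 with an adjusted p of 0.032 without wild-type male 2) and Sufu at 0.14 (-0.11 to 0.39). The wild-type values of Ihh were wide apart, from 5.75 to 22.9 FPKM, against 11.5 to 15.8 FPKM in the samples labelled Ret null.

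Fitted without the 3 Ret-positive samples of E14.5, Gli3 (0.77, adjusted p = 0.012), Ptch1 (0.70, adjusted p = 0.022) and Smo (0.29, adjusted p = 0.044) were called by limma, where 8.61% of all genes were called. Shh (0.56, adjusted p = 0.065), Gli2 (0.52, adjusted p = 0.058) and Gli1 (0.37, adjusted p = 0.066) missed the threshold by limma. The part of the smaller number of samples in this was not tested. Leaving out 1 sample at a time, Gli3, Shh and Smo were called each time. Ptch1 missed the threshold without any of female 1 or 2 or male 1, 2 or 3 labelled Ret null, or wild-type female 1 or 2 or male 1 or 3 (adjusted p 0.055 to 0.078). Gli2 missed it without any of female 1 or 2 or male 1, 2 or 3 labelled Ret null, or wild-type female 1 or 2 or male 2 or 3 (adjusted p 0.053 to 0.095). Without the 2 wild-type samples that held heart, lung or liver RNA, Gli3 (0.64, adjusted p = 0.020) and Shh (0.61, adjusted p = 0.030) were called, while Ptch1 (0.58, adjusted p = 0.058), Smo (0.22, adjusted p = 0.057) and Gli2 (0.31, adjusted p = 0.11) were not.

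Markers of other cell types stood beside this comparison as follows. Of 10 epithelial markers 1 was higher and none lower, with a summed level of 568 to 719 FPKM in the samples labelled Ret null and 571 to 1057 FPKM in wild type. Of 8 smooth muscle markers 1 was higher and 1 lower (949 to 1490 FPKM in the samples labelled Ret null and 824 to 1574 FPKM in wild type). Of 7 mesenchyme markers 2 were higher (1318 to 2293 FPKM in the samples labelled Ret null and 1277 to 2829 FPKM in wild type). Of the pancreas and liver markers 1 each was lower. Limma called 0 of the blood, endothelial, heart, lung, notochord and cloacal lists, with 2 blood, 1 endothelial and 2 heart markers at an unadjusted p under 0.05 (35.8% of all genes). The summed level of 5 stomach markers was 51.8 to 70.1 FPKM in the samples labelled Ret null and 3.12 to 45.8 FPKM in wild type, without overlap, though only 1 of the 5 was called. The 8 enteric neural crest markers summed to 192, 196 and 197 FPKM in the Ret-positive samples, to 56.6, 57.1 and 57.9 FPKM in the other samples labelled Ret null, and to 96.7 to 184 FPKM in wild type. Limma called 0 of the 8, with 0 at an unadjusted p under 0.05. The part of the stomach and neural crest markers in the Hedgehog values was not tested. Depth also went partly with genotype at E14.5, at 6.19 to 8.09 M fragments for Ret null and 4.88 to 6.79 M fragments for wild type. Its part was not tested.

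**Figure D2:**
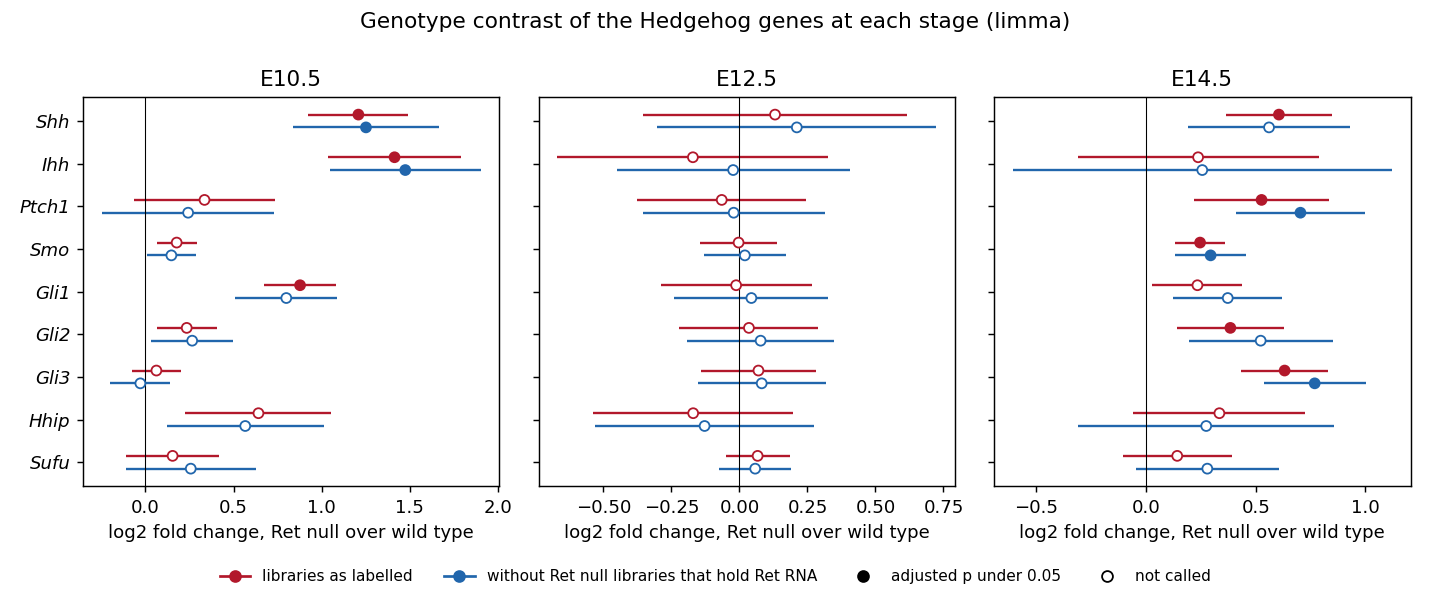
Log2 fold change of each Hedgehog gene, Ret null over wild type (horizontal axis, a scale per panel), with the 95% interval of the limma fit as a bar, at each stage; red is the fit of all libraries as labelled, blue the fit without the Ret null libraries that hold Ret RNA, and filled points have an adjusted p under 0.05. At E10.5 the filled red points are Shh (1.21), Ihh (1.41) and Gli1 (0.88), and the interval of Hhip covers the value of Gli1. The blue values there compare males only. At E12.5 every interval covers 0. At E14.5 the filled red points are Shh, Ptch1, Smo, Gli2 and Gli3.

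The change with stage differed between the labelled genotypes. Among the samples labelled Ret null the mean of Shh was 15.3 ± 3.07 FPKM at E10.5, 15 ± 3.62 FPKM at E12.5 and 19.7 ± 1.25 FPKM at E14.5 (SD, n = 5, 6 and 6), and that of Ihh was 5.89 ± 1.5, 5.37 ± 1.99 and 13.6 ± 1.72 FPKM. In wild type the mean of Shh was 5.87 ± 1.31, 14.6 ± 6.13 and 12.8 ± 2.63 FPKM (SD, n = 4, 5 and 6), and that of Ihh was 1.5 ± 0.41, 6.32 ± 1.87 and 12.3 ± 6.08 FPKM. In order of its group means, Shh was lowest in E10.5 wild type, whose highest sample (7.08 FPKM) lay under the lowest sample of every other group. E14.5 wild type, E12.5 wild type, E12.5 Ret null, E10.5 Ret null and E14.5 Ret null followed, and each of these neighbours overlapped the next in range.

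In the samples labelled Ret null 2 of the 9 genes were called by limma between E12.5 and E10.5, both lower at E12.5: Gli1 fell by 0.63 on the log2 scale (adjusted p = 0.0032) and Smo by 0.20 (adjusted p = 0.041). Of all genes 3.36% were called, 2.48% as lower. Shh (0.01, interval -0.34 to 0.36) and Ihh (-0.10, interval -0.61 to 0.41) were not called there. Without the Ret-positive samples 0 of the 9 were called by limma and 2 had an unadjusted p under 0.05 (10.6% of all genes), where 0.0912% of all genes were called. That comparison was of males only, since no females labelled Ret null were left at E10.5. The call of Smo was also lost without any of 8 samples labelled Ret null, female 1 and 2 or male 1, 2 or 3 at E10.5 and female 2 or 3 or male 2 or 3 at E12.5 (adjusted p 0.050 to 0.25). In wild type, E12.5 guts held more Shh (log2 fold change 1.09, adjusted p = 0.0016), Ihh (1.482, adjusted p = 0.0025) and Hhip (0.86, adjusted p = 0.018) than E10.5 guts, so that 3 of the 9 were called, where 4.57% of all genes were called, 2.75% as higher. Hhip lost the call without wild-type female 3 or male 3 and 4 at E10.5, or female 1 and 2 or female 3 at E12.5 (adjusted p 0.064 to 0.11). Over these stages limma called 0 of 10 epithelial and 0 of 8 smooth muscle markers in the samples labelled Ret null, with 0 at an unadjusted p under 0.05 (19.2% of all genes). In wild type 6 epithelial markers were higher at E12.5, and of the smooth muscle markers 6 were higher and 1 lower. Their part in the stage values was not tested.

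The interaction of genotype and stage was tested directly. The fold change of Ret null over wild type was lower at E12.5 than at E10.5, the difference of log2 fold changes being -1.08 for Shh (SE 0.26, adjusted p = 0.033), -1.58 for Ihh (SE 0.37, adjusted p = 0.030) and -0.89 for Gli1 (SE 0.17, adjusted p = 0.0090) by limma, where 1.34% of all genes were called. Without the Ret-positive samples the differences were -1.21, -1.57 and -0.715 and none of the 9 was called by limma (adjusted p 0.58 to 0.59, 3 of the 9 and 7.16% of all genes at an unadjusted p under 0.05), where 0.00702% of all genes were called. No females labelled Ret null were then left at E10.5, so these differences were taken in males only, at both stages. The loss of the calls therefore cannot be assigned to the Ret-positive samples alone. Leaving out 1 sample at a time left 1 to 3 of the 3 calls, and Gli1 was called each time. It was the call that was left without any of 11 samples: at E10.5 female 3 or male 3 labelled Ret null and wild-type female 3, male 3 and 4 or male 5, and at E12.5 female 2 or 3 or male 1 or 2 labelled Ret null and wild-type female 1 and 2 or female 3. Without the libraries whose sex-linked RNA went against the label none of the 9 was called (adjusted p 0.16 to 0.33).

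From E12.5 to E14.5 Ihh was the member that was higher at the later stage in both labelled genotypes. Its log2 fold change was 1.24 in the samples labelled Ret null (adjusted p = 0.00023) and 0.83 in wild type (adjusted p = 0.0059). In the samples labelled Ret null Gli3 fell by 0.36 (adjusted p = 0.0015), Gli1 rose by 0.31 (adjusted p = 0.024), and with Ihh 3 of the 9 were called by limma, where 35% of all genes were called. Gli1 lost the call without female 2 or 3 or male 2 at E12.5 or female 2 at E14.5 (adjusted p 0.056 to 0.079), and Gli3 without the Ret-positive samples (-0.24, adjusted p = 0.11). In wild type 5 members other than Ihh fell: Gli3 by 0.93 (adjusted p = 1.3e-08), Hhip by 0.67 (adjusted p = 0.0042), Ptch1 by 0.52 (adjusted p = 0.0083), Gli2 by 0.28 (adjusted p = 0.035) and Smo by 0.27 (adjusted p = 0.00020). These 6 of 9 calls stand against 58.9% of all genes called in that comparison (31% higher, 27.9% lower), so the count is close to that of all genes. Gli2 lost the call without wild-type female 1 and 2 or male 1 at E12.5, or female 1, male 2 or male 3 at E14.5 (adjusted p 0.060 to 0.16). Gli3 fell less in the samples labelled Ret null: the fold change of Ret null over wild type was higher at E14.5 than at E12.5 by 0.56 for Gli3 (SE 0.12, adjusted p = 0.0057) and by 0.25 for Smo (SE 0.07, adjusted p = 0.025), where 17.4% of all genes were called. With the Ret-positive samples left out Gli3 was at 0.69 (adjusted p = 0.0047), Ptch1 at 0.73 (adjusted p = 0.037) and Smo at 0.28 (adjusted p = 0.038), where 18% of all genes were called. Without wild-type female 1 and 2 at E12.5 the difference of Smo was 0.20 (adjusted p = 0.090). Without female 1 labelled Ret null at E12.5 the interaction was called for 4 of the 9. Between these stages all 10 epithelial markers were higher at E14.5 in the samples labelled Ret null and 8 in wild type, and their part was not tested. Stage went with depth, given above, which was higher in every library at E12.5 than in any at E14.5. Between E10.5 and E12.5 the depths overlapped only from 17.5 to 17.8 M fragments. The part of depth in the changes and interactions over the stages was not tested.

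Because gut epithelium makes both ligands, Shh was also set against Epcam and against Ihh within a sample, as the log2 ratio of FPKM + 1. At E10.5 the log2 ratio of Shh to Epcam was -1.479 ± 0.30 in the samples labelled Ret null and -1.65 ± 0.40 in wild type (SD, n = 5 and 4). The difference of 0.17 was smaller than the spread (exact two-sided permutation test, p = 0.49, adjusted p = 0.49 over 6 such tests, the smallest p possible being 0.0079). Shh and Epcam were thus both higher in the samples labelled Ret null, by 1.21 and 1.07 on the log2 scale, with no detectable difference in their ratio. At E12.5 the ratio was -1.55 ± 0.09 in the samples labelled Ret null and -1.68 ± 0.34 in wild type (n = 6 and 5, exact permutation p = 0.41, adjusted p = 0.49). At E14.5 it was -2.66 ± 0.10 in the samples labelled Ret null, from -2.77 to -2.48, and -3.34 ± 0.40 in wild type, from -3.79 to -2.83 (n = 6 each). The difference of the group means was 0.68, and its exact permutation p of 0.0022 was the smallest possible (adjusted p = 0.013). Every sample labelled Ret null lay above every wild-type sample, though the nearest values, -2.77 and -2.83, were close. Epcam itself lay at 105 to 140.0 FPKM in the samples labelled Ret null and at 107 to 206 FPKM in wild type at that stage. When the Ret-positive samples were left out the difference was 0.70 with the groups still apart, and the exact permutation p adjusted over the tests was 0.14. With 3 samples against 6, so few arrangements exist that this test alone could not pass after adjustment over 6 tests, so it decides nothing. The adjusted exact permutation p was 0.052 without female 1, 2 or 3 or male 1 or 3 labelled Ret null, with differences of 0.65 to 0.69.

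The ratio of Shh to Ihh did not pass the test between the labelled genotypes at any stage, but at E10.5 and E14.5 this depended on the pseudocount or on the samples. The difference of the log2 ratios was -0.20 at E10.5, 0.31 at E12.5 and 0.37 at E14.5 (exact permutation p 0.16 to 0.18, adjusted p = 0.26 for each). With a pseudocount of 0.1 the difference at E10.5, where wild-type Ihh was at 0.905 to 1.82 FPKM, was -0.532 (exact permutation test, adjusted p = 0.048). At E14.5 it was 0.549 without wild-type male 2 (adjusted p = 0.0065) and 0.626 without both wild-type samples that held RNA of neighbouring tissue (adjusted p = 0.014). The mean log2 ratio was 1.25 ± 0.26, 1.36 ± 0.22 and 0.51 ± 0.13 from the earliest to the latest stage in the samples labelled Ret null, and 1.45 ± 0.06, 1.05 ± 0.40 and 0.15 ± 0.57 in wild type.

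**Figure D3:**
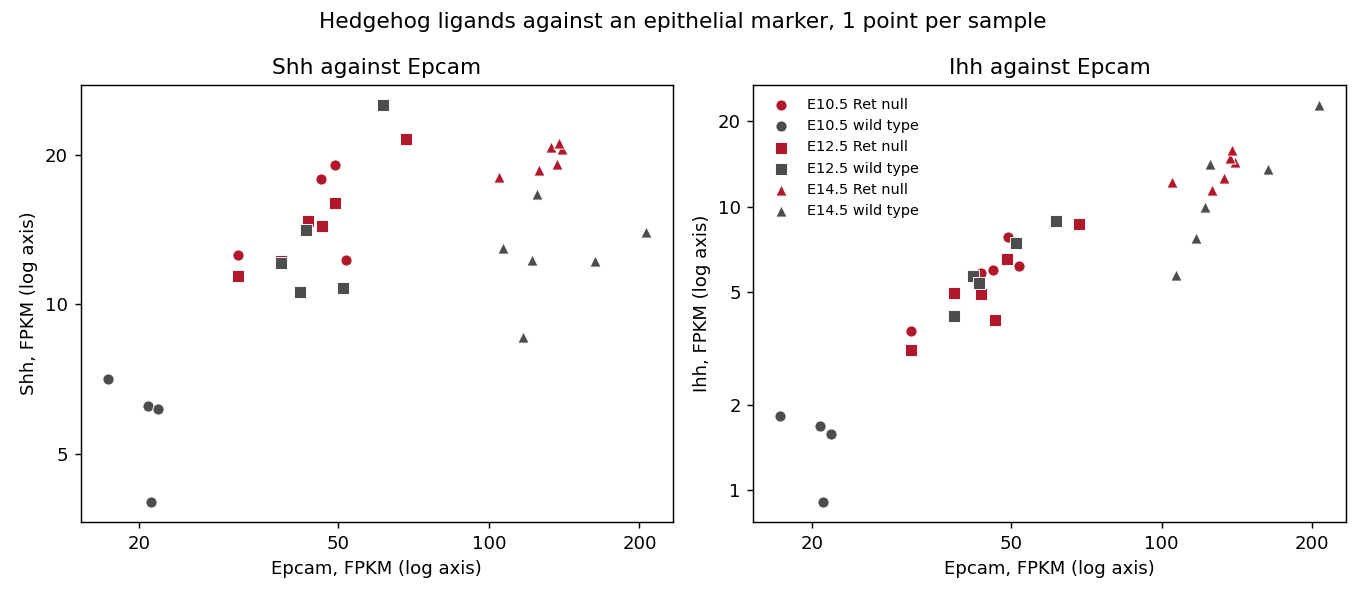
Level of Shh (left panel) and Ihh (right panel) on the vertical axis against the epithelial marker Epcam on the horizontal axis, in FPKM on log axes, with 1 point per sample; red is Ret null, grey is wild type, and the shape gives the stage. At E10.5 the samples labelled Ret null lie at 31.6 to 51.8 FPKM of Epcam and the wild-type samples at 17.3 to 21.8 FPKM, and at E14.5 every sample labelled Ret null has more Shh (18.0 to 21.1 FPKM) than every wild-type sample (8.59 to 16.7 FPKM).

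Within a stage, the level of Shh was set against Ihh, Epcam and the targets Ptch1, Gli1 and Hhip across samples, with the genotypes kept apart where they separated, in 15 relations. E10.5, with under 6 samples in each genotype, was not tested. In the samples labelled Ret null at E14.5, Pearson r of Shh was 0.446 with Ptch1, -0.208 with Gli1 and 0.832 with Hhip. In wild type at E14.5 it was -0.518, 0.345 and -0.084. None of the 15 passed adjustment. The closest was Shh with Epcam at E12.5 over 11 samples (Pearson r = 0.79, permutation p = 0.0046, adjusted p = 0.069; Spearman rho = 0.65, permutation p = 0.036, adjusted p = 0.41). Pearson r was 0.38 without the 2 samples farthest from the median of Shh. Leaving these out also narrows the range of Shh, so the fall of r does not show that the relation rested on them. Shh with Gli1, the target that moved with it at E10.5, gave r = 0.61 at E12.5 over 11 samples (permutation p = 0.045, adjusted p = 0.13; Spearman rho = 0.36, permutation p = 0.27, adjusted p = 0.41) and 0.007 without the 2 farthest samples.

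Other genes of the pathway were followed as a list of 25, in 4 roles, of which 21 to 23 could be tested in a comparison. At E10.5 5 of 22 were higher in the samples labelled Ret null and none lower, where 8.29% of all genes were called, 5.61% as higher. The median log2 fold change of the 22 was 0.06, against 0.01 over all genes. Of the 4 mesenchymal targets tested 3 rose. Foxf2, a forkhead factor of gut mesenchyme, averaged 35.0 ± 7.95 FPKM in the samples labelled Ret null and 13.5 ± 3.41 FPKM in wild type (SD, n = 5 and 4), a log2 fold change of 1.28 (adjusted p = 0.0067, limma). Foxf1, its relative, averaged 84.6 ± 24.3 FPKM in the samples labelled Ret null and 39.0 ± 10.4 FPKM in wild type (1.04, adjusted p = 0.031). Foxl1, which marks the mesenchymal cells beneath the epithelium, averaged 4.21 ± 0.97 FPKM in the samples labelled Ret null and 1.35 ± 0.60 FPKM in wild type (1.13, adjusted p = 0.016). Bmp4, a signal that mesenchyme sends back to the epithelium, did not move with them: it averaged 22.5 ± 1.14 FPKM in the samples labelled Ret null and 23.7 ± 4.99 FPKM in wild type (-0.05, adjusted p = 0.82). The other calls were the ciliary proteins Evc (0.28, adjusted p = 0.029) and Kif7 (0.26, adjusted p = 0.040). Of the genes of ligand release and processing, 0 of the 5 tested were called by limma, and 1 had an unadjusted p under 0.05 (28.2% of all genes). Without the Ret-positive samples 0 of the 22 were called by limma and 5 had an unadjusted p under 0.05 (20.2% of all genes), with Foxf2 at 1.31 (adjusted p = 0.064), Foxl1 at 1.23 (adjusted p = 0.095) and Foxf1 at 1.25 (adjusted p = 0.11). That comparison was of males only, in both labelled genotypes, and 0.522% of all genes were called in it.

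At E12.5 limma called 0 of 21 of these genes, and 3 had an unadjusted p under 0.05 (8.46% of all genes), with Foxf1 at -0.19, Foxl1 at -0.15 and Bmp4 at 0.11. At E14.5 6 of 22 were higher in the samples labelled Ret null and none lower, where 15.7% of all genes were called, 10.9% as higher. The median over the 22 was 0.18, against 0.04 over all genes. Of the 4 mesenchymal targets 2 rose: Foxf1 averaged 60.4 ± 6.03 FPKM in the samples labelled Ret null and 40.9 ± 6.99 FPKM in wild type (SD, n = 6 each, log2 fold change 0.56, adjusted p = 0.0099), and Bmp4 averaged 32.1 ± 3.27 FPKM in the samples labelled Ret null and 24.3 ± 2.78 FPKM in wild type (0.39, adjusted p = 0.019). Foxl1 was at 0.15 (adjusted p = 0.26). The other calls were the kinase Csnk1a1 (0.25) and the ciliary proteins Evc2 (0.26), Gpr161 (0.36) and Kif7 (0.25), each with an adjusted p under 0.05 by limma. Among the samples left without the Ret-positive ones, 4 of 22 were called by limma, with Bmp4 at 0.49 (adjusted p = 0.032), Foxf1 at 0.53 (adjusted p = 0.043) and Foxf2 at 0.73 (adjusted p = 0.033), where 8.61% of all genes were called.

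The forkhead targets were also followed over the stages. From E10.5 to E12.5 Foxl1 was at -0.20, Foxf2 at -0.415 and Foxf1 at -0.235 in the samples labelled Ret null, none of them called, and Kif7 fell by 0.24 (limma, adjusted p = 0.036) as 1 of 23. Of all genes 3.36% were called in that comparison, 2.48% as lower. In wild type Foxl1 (1.08, adjusted p = 0.00044), Foxf1 (1.004, adjusted p = 0.0049) and Foxf2 (0.87, adjusted p = 0.0093) rose. The other calls in wild type were Csnk1a1 (0.23), which was higher, and Scube1, of a family of secreted proteins that help release Hedgehog ligands (-1.33), and the endocytic receptor Lrp2 (-0.42), both lower. Bmp4 was at -0.24 and not called. The interaction of genotype and stage was called for Foxl1 (-1.28, adjusted p = 0.0069), Foxf2 (-1.29, adjusted p = 0.014) and Foxf1 (-1.24, adjusted p = 0.023) by limma, and in the other direction for Lrp2 (0.55, adjusted p = 0.042), where 1.34% of all genes were called. Without the Ret-positive samples, a comparison of males only, limma called 0 of the 23, and 5 had an unadjusted p under 0.05 (7.16% of all genes). From E12.5 to E14.5 Bmp4 rose by 0.57 and Foxl1 by 0.65 in the samples labelled Ret null, while Stk36 fell by 0.23, Scube3 by 0.65 and Btrc by 0.16, and Foxf1 was at -0.16 and not called. In wild type 10 of 23 fell and 4 rose between these stages, where 27.9% of all genes were called as lower and 31% as higher. The 8 that fell among the 10 ciliary proteins and Gli regulators included Gsk3b (-0.41), Csnk1a1 (-0.34), Stk36 (-0.36), Btrc (-0.33) and Gpr161 (-0.54). Among the targets Foxf1 fell by 0.92, while Bmp4 rose by 0.29 and Foxl1 by 0.35. The interaction over these stages was called for 5 of 23, each higher in the samples labelled Ret null relative to wild type: Foxf1 (0.76), Gpr161 (0.48), Csnk1a1 (0.29), Gsk3b (0.27) and Evc2 (0.27). Of all genes 17.4% were called in that interaction, 11.2% as higher. Foxf1 was not called there without the Ret-positive samples (0.675, adjusted p = 0.13).

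**Figure D4:**
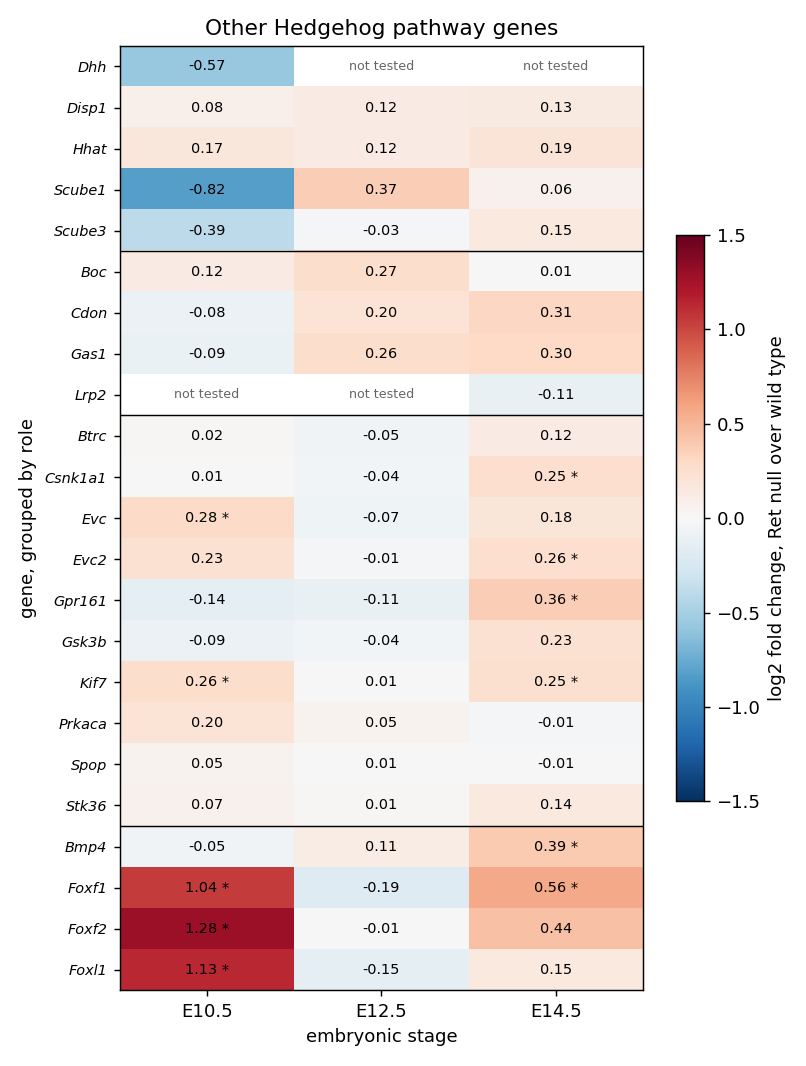
Log2 fold change of other Hedgehog pathway genes, Ret null over wild type, at each stage (columns), with genes in rows grouped by role from top to bottom as ligand release, receptors, ciliary and Gli regulators, and mesenchymal targets; colour and number give the value and a star marks an adjusted p under 0.05. The stars at E10.5 fall on Evc, Kif7, Foxf1, Foxf2 and Foxl1, there are none at E12.5, and at E14.5 Bmp4 (0.39) and Foxf1 (0.56) are the targets that carry one.

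The genes whose pattern was most like that of Shh and of Gli1 were looked for among all 14321 genes, by Pearson's r of log2 levels over the 32 samples after the mean of each stage was taken away. For Shh they included Syne1 (r = 0.91), Parva (0.88), Mrvi1 (0.88) and Kit (0.88). For Gli1 they were Foxf2 (0.96), the noncoding RNA Fendrr, a neighbour of Foxf1 (0.90), Olfr1372-ps1 (0.90), Lrig1 (0.90) and Soga2 (0.90). Among the 9 genes, r with Shh was 0.83 for Gli1, 0.79 for Ihh, 0.63 for Smo, 0.62 for Hhip, 0.54 for Ptch1, 0.49 for Gli3, 0.47 for Gli2 and 0.31 for Sufu. These values describe the samples and carry no test, and they include the difference between the labelled genotypes at E10.5.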

How the data were processed

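RNA of dissected guts was sequenced after oligo dT selection on a HiSeq 2000 with paired reads of 75 bases, per the labels' protocols, in 36 libraries. The deposited values are FPKM per gene, made by the authors; the submitters' processing notes name Picard, TopHat2, Cufflinks, Cuffdiff and mm10, without versions, and say nothing on counting by strand. No read counts were used here: fragments were estimated from the width of the authors' confidence intervals, which covers counting error only. Library pairs whose spread was at most 1.1 times the counting noise, with at most 1% of genes beyond 3 SD, were averaged: 4 of the 36 pairs compared within a group (0.906 to 1.086 times), the others being at 1.048 to 3.327.

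Genes with FPKM of at least 1 in at least 3 samples and an OK status in every library were tested on log2(FPKM + 1) with limma 3.58.1 (R 4.3.3; moderated, with a mean-variance trend, two-sided), with Benjamini-Hochberg adjustment over all genes and a threshold of 0.05. Genotype was tested within each stage, averaged over the sexes. Without the Ret-positive libraries no females labelled Ret null were left at E10.5, so contrasts that needed that group were taken in males only. Stages and the interaction of genotype and stage were tested in 1 fit of all 12 groups. Ratios were compared by exact two-sided permutation tests, and correlations at E12.5 by 100000 permutations, in Python 3.11.15 with scipy 1.17.1. The steps were tested on simulated data. Ret RNA was called present from 1 FPKM. The text names all 9 members, up to 6 other pathway genes called in a comparison by smallest p, Foxf1, Foxl1, Bmp4 and Epcam throughout, Kif7 and Foxf2 beside them after their values were seen, and genes among the 5 most like Shh and Gli1; the cell-type marker lists are given by their counts and sums. Of 25 listed pathway genes 24 had an entry, and 1 further gene is not reported here. The members and lists were chosen with earlier results of these data known. Alternatives were a pseudocount of 0.1, no filter, rescaling by size factors, no trend, 1 fit for all stages, every library counted, a replicate block, and leaving out the Ret-positive libraries, those with other sex-linked RNA, or 1 sample at a time. Leaving out the 2 wild-type samples with neighbouring tissue was chosen after seeing the data.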

Additional observations from a re-analysis of the deposited data

Results flagged for a closer look

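In 4 of the 54 groups of samples looked at, 1 sample stood far from the others, where chance gives about 1 in 20 groups. Wild-type male 2 at E12.5 held 25.2 FPKM of Shh, against 10.6 to 14.1 FPKM in the other wild-type samples. Wild-type male 1 at E14.5 held 8.85 FPKM of Gli2 (others 5.29 to 6.45 FPKM), and wild-type male 2 at E14.5, the sample with heart and lung RNA, held 7 FPKM of Hhip (others 1.91 to 3.54 FPKM). Female 3 labelled Ret null at E10.5 held 10.7 FPKM of Sufu (others 12.2 to 12.7 FPKM), and it is one of the samples whose sex-linked RNA went against the label.

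The log2 fold change of Ret null over wild type differed between stages for 5 genes by limma's interaction term. The difference of E12.5 and E10.5 was -1.08 for Shh, -1.58 for Ihh and -0.89 for Gli1, where 1.34% of all genes were called. The difference of E14.5 and E12.5 was 0.56 for Gli3 and 0.25 for Smo. There 17.4% of all genes were called, so the count of members is close to that of all genes.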

How the results depend on the processing

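Of the alternative values of called genes 689 stayed called and 102 missed the threshold, and none changed direction. Of those of genes not called 349 kept their side and sign, 6 passed the threshold and 21 changed sign. The counts that follow are of the 9 members only. The share of all genes called can move with the setting too. At E14.5 it was 15.7% in the main fit and 8.61% without the Ret-positive libraries. A changed count is therefore not a change particular to the members. At E10.5 the 3 calls became 6 with every library counted and 3 to 4 with 1 sample left out. In E10.5 females the 3 became 5 with every library counted, 0 without the libraries of other sex-linked RNA and 2 to 3 with 1 sample left out. In E10.5 males the 0 became 1 with rescaling, 3 with every library counted, 2 with the replicate block, without the Ret-positive libraries or in 1 fit, and 0 to 3 with 1 sample left out, with calls made without female 1 and 2, female 3 or male 1 labelled Ret null or wild-type female 1 and 2 or 3. At E14.5 the 5 became 3 with rescaling, with the replicate block or without the Ret-positive libraries, 2 without the 2 wild-type samples with neighbouring tissue, and 3 to 5 with 1 sample left out. At E12.5, and between the sexes, limma called 0 under every alternative run, and 0 had an unadjusted p under 0.05 in the reported fits. Between E10.5 and E12.5 the 2 calls among samples labelled Ret null became 1 without the filter, the trend or the libraries of other sex-linked RNA, 0 without the Ret-positive libraries (males only), and 1 to 2 with 1 sample left out. The 3 interactions became 0 without the Ret-positive libraries (males only) or those of other sex-linked RNA, and 1 to 3 with 1 sample left out. Between E12.5 and E14.5 the 2 interactions became 1 with rescaling, without the libraries of other sex-linked RNA or without the 2 wild-type samples, and 1 to 4 with 1 sample left out. With 1 sample left out, 2 to 3 of 3 calls remained between E10.5 and E12.5 in wild type, and 5 to 6 in wild type and 2 to 4 in samples labelled Ret null were made between E12.5 and E14.5.

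The difference in the ratio of Shh to Epcam at E14.5 was 0.592 to 0.784 with 1 sample left out and 0.703 without the Ret-positive libraries (exact permutation test, adjusted p = 0.14, with too few samples for this test alone to pass). It was 0 to 0.322 at E10.5, where it reached -0.0 without wild-type female 3, and 0.02 to 0.242 at E12.5. The difference in the ratio of Shh to Ihh was -0.532 at E10.5 with a pseudocount of 0.1 (adjusted p = 0.048) and -0.275 to -0.109 with 1 sample left out, 0.162 to 0.393 at E12.5, and 0.204 to 0.549 at E14.5, where it was called without wild-type male 2, or 0.626 without the 2 wild-type samples (adjusted p = 0.014). Among genes not called, Sufu at E10.5 was at -0.030 with the replicate block, Gli3 at E10.5 at -0.029 and Smo and Gli1 at E12.5 at 0.020 and 0.044 without the Ret-positive libraries, Smo and Gli1 at E12.5 at 0.043 and 0.006 without the libraries of other sex-linked RNA, and Ihh at E14.5 at -0.016 without the 2 wild-type samples. With 1 sample left out, the E12.5 values ran from -0.1 to 0.046 for Gli1, -0.033 to 0.1 for Gli2, -0.006 to 0.293 for Shh and -0.05 to 0.043 for Smo, which was at 0.035 without female 2 labelled Ret null. The cause of these changes was not tested.

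Same-numbered samples did not deviate together (r from -0.292 to 0.352), so the replicate numbers name samples only and the block is one alternative among the rest. Each labelled genotype had 4 to 6 samples at a stage, and depth was lowest at E14.5. The part of either in the precision was not tested. No other test than limma was run across genes, since the deposited values are not counts.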
